A study of Mus musculus with 36 samples.

Results

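Resting type 1 conventional dendritic cells (cDC1) that received the oxidized phospholipid PGPC and nothing else were compared with untreated cells of the same kind. The comparison holds 6 of the series' 36 RNA libraries, 3 with PGPC and 3 untreated, which were chosen by their treatment labels, and every gene that passed a filter on low counts was tested. The cells came from cultures of mouse bone marrow kept in the cytokine FLT3L, and the series calls the 3 replicates of each group biological. The other groups used beside them are cDC1 given LPS with PGPC or LPS alone, with 3 libraries each, and cDC2, the second conventional kind, given PGPC (2 of 3 libraries, since replicate 6 held too few counts and was left out) or nothing (3 libraries). The cDC2 given LPS with PGPC or LPS alone, 3 libraries each, entered the fit for its estimate of spread. Libraries of cells given alum, with or without LPS, entered only an alternative fit of all 36 libraries. The strain, sex and age of the mice, the doses, the times and any sort or gate on the cultures were not stated.

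PGPC is a phosphatidylcholine whose second fatty acid has been shortened by oxidation, and it is a component of the oxidized lipid mixtures found in damaged tissue. In dendritic cells and macrophages such lipids are known to be taken up with the help of CD14, and with LPS they bring cells into a hyperactive state in which the inflammasome, the complex that activates caspase-1, releases interleukin-1 beta while the cell stays alive. LPS supplies the transcription of the cytokine genes in that scheme. The libraries with PGPC alone show how messenger RNA differed from untreated cells where that signal was absent. The cDC1 are the dendritic cells that take up dead cells and present their antigens to CD8+ T cells.

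Total counts were 16601064, 2460024 and 13589259 in PGPC replicates 1, 2 and 3, and 2471460, 8664027 and 7450622 in untreated replicates 1, 2 and 3. The locus that encodes ribosomal RNA took 27.6 ± 11.8% of counts in the PGPC libraries and 53.2 ± 16.5% in the untreated libraries (SD, n = 3 each; exact permutation test, two-sided, p = 0.1, the smallest p that 3 against 3 can give). Mitochondrial genes took 1.2 ± 0.696% with PGPC and 0.426 ± 0.254% without (exact permutation test, two-sided, p = 0.2). Untreated replicate 1 stood apart, with 71.94% of its counts at the ribosomal RNA locus and a TMM scaling factor of 0.4716, against 0.9143 and 0.8884 in the other untreated libraries. Levels below are CPM, counts divided by the TMM-scaled library total and set to the usual per-million scale. One limit applies to every level: in bulk samples, fewer cells of a type and less RNA per cell cannot be told apart.

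Of the 17 cDC1 markers, counts were found for 17, 17 and 15 in PGPC replicates 1 to 3 and for 14, 16 and 17 in untreated replicates 1 to 3. Irf8, a transcription factor that cDC1 need, was at 648, 583 and 496 CPM with PGPC and at 1330, 808 and 560 CPM untreated. Clec9a, the dead-cell receptor of cDC1, was at 80.3, 59.5 and 76.2 CPM with PGPC and at 24, 14.4 and 72.4 CPM untreated. Xcr1, the chemokine receptor by which mature cDC1 are usually recognized, was near 0 in both groups, at 0.0789, 1.63 and 0 CPM with PGPC and at 0, 0.379 and 0.151 CPM untreated. None of the 17 markers was called in the comparison.

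Between PGPC and untreated cDC1, 259 of 12463 tested genes were called at an adjusted p under 0.05 (2.08%). Of these, 72 were higher with PGPC (0.578%) and 187 were lower (1.5%). Among the higher genes were receptors of the myeloid surface (Pira2, Lilra6, Lilr4b, Clec12a, Msr1), lipoprotein lipase (Lpl) and the chemokines Ccl22 and Ccl5, and among the lower genes were Ccny, Klhl21, Zfp36l2, the fatty acid synthase gene Fasn and the NF-kB regulator Bcl3. At an unadjusted p under 0.05 there were 2062 genes (16.5%). The 3 PGPC libraries lay wholly above the 3 untreated libraries for 1052 genes (8.44%) and wholly below them for 1204 (9.66%), and the median log2 fold change over all tested genes was 0.

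The size of the call depended on which libraries shared the estimate of spread. These 259 genes come from a fit of 23 libraries without alum. With the 12 cDC1 libraries alone 68 genes were called, and with the 6 PGPC and untreated libraries alone 8 were called: Prss34 higher, and Ccny, Fasn, Ralgds, Zfp36l2, H3c13, Lars2 and Gm26917 lower. With all 36 libraries, alum included, 43 of the 259 were called, 5 higher and 38 lower. The calls of Ccl22 (adjusted p = 0.744), Lpl (0.86), Msr1 (0.155) and Ccny (0.121) were among those lost. The alum libraries held counts for 467 to 2610 genes each, against 9687 to 15608 in the libraries of the fit. Their part in these losses was not tested. Without untreated replicate 1 the count was 119, 28 higher and 91 lower, of which 111 were among the 259. Of the 259 calls, 75 (16 higher and 59 lower) held whichever of the 6 libraries was left out, and genes described below as called whichever library was left out are of that kind. Such genes, and the receptor families, were singled out after their values were seen.

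**Figure D1:**
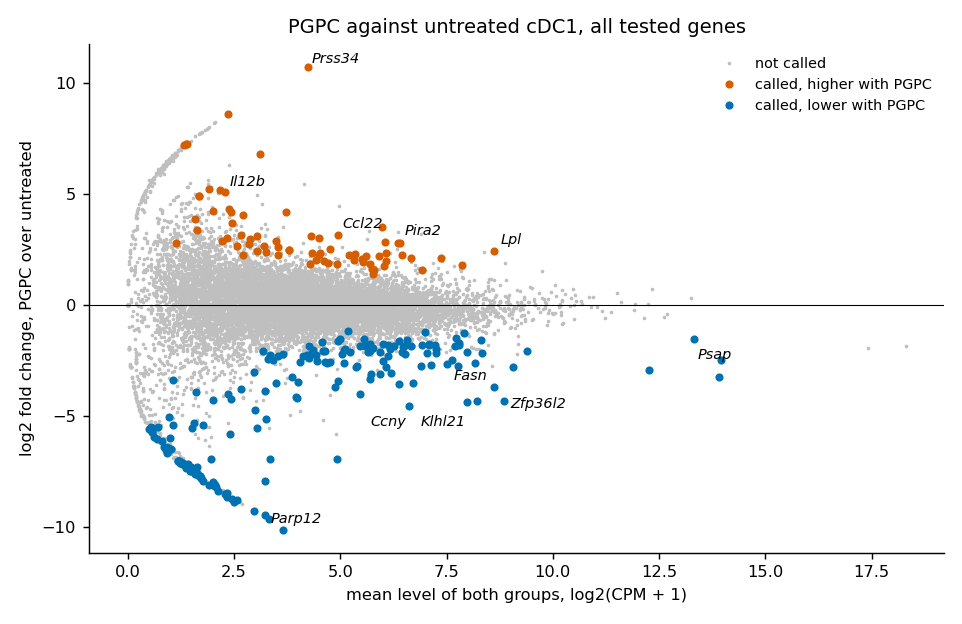
Each point is 1 of the 12463 tested genes in cDC1. The x axis is the mean level of the 2 groups as log2(CPM + 1) and the y axis the log2 fold change of PGPC over untreated. Called genes are orange where higher with PGPC (72) and blue where lower (187). The rim of points that curves away at the left and bottom holds genes with no count in 1 of the groups, whose fitted fold change is not a bound.

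Receptors that recognize oxidized lipid, LPS or debris were examined first. Of the 17 genes of that list, Msr1 was the only one called, and the median log2 fold change of the list was 0.26. Msr1 encodes scavenger receptor A, which binds oxidized lipoproteins and bacterial surfaces. It had 34.2, 8.45 and 59.7 CPM with PGPC, against 2.57, 3.16 and 5.74 CPM untreated. The groups did not overlap, and the gene rose by 3.09 ± 0.63 on the log2 scale (SE; adjusted p = 0.00922) and was called whichever library was left out, though not with the 12 cDC1 libraries alone. Without PGPC replicate 3 its log2 fold change was 2.43. Cd36, the other main scavenger receptor for oxidized phospholipid, had 247, 162 and 309 CPM with PGPC, against 24.9, 42.4 and 160 CPM untreated, with a log2 fold change of 1.64 ± 0.50 that missed the threshold (adjusted p = 0.08). Cd68, a lysosomal scavenger protein, differed by 1.52 ± 0.44 on the log2 scale (adjusted p = 0.0658). The LPS receptors had overlapping groups: for Cd14 the log2 fold change was 0.63 ± 0.56 (adjusted p = 0.636) and for Tlr4 it was -0.40 ± 0.57 (adjusted p = 0.808).

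Of the 5 tested genes named PIR or LILR, 4 were called higher and all 5 lay wholly above the untreated libraries, with a median log2 fold change of 2.24. Over all tested genes, 0.578% were called higher and 8.44% lay wholly above. Pira2, Lilra6 and Pirb lie on chromosome 7, and Lilr4b and Lilrb4a on chromosome 10. PIR and LILR receptors come in activating and inhibitory forms that bind MHC class I and related ligands on myeloid cells. Pira2 (GRCm38 chromosome 7, 3836812 to 3845051, minus strand, protein-coding) had 96.4, 157 and 169 CPM with PGPC, against 20.6, 12.6 and 28.6 CPM untreated. It rose by 2.77 ± 0.48 on the log2 scale (adjusted p = 0.00277). Lilra6 (chromosome 7, 3908280 to 3915503, minus strand) had 24.9, 60.1 and 31.6 CPM with PGPC, against 0.858, 3.79 and 8.01 CPM untreated, a log2 fold change of 3.02 ± 0.56 (adjusted p = 0.0044). Lilr4b had 93.4, 126 and 211 CPM with PGPC, against 9.44, 29.2 and 50.0 CPM untreated (log2 fold change 2.24 ± 0.46, adjusted p = 0.00911). These 3 were called whichever library was left out. Pirb, an inhibitory member, had 319, 281 and 473 CPM with PGPC, against 68.6, 68.4 and 173 CPM untreated (log2 fold change 1.78 ± 0.40, adjusted p = 0.0194). That call was lost without untreated replicate 1 (adjusted p = 0.105), untreated replicate 2 (0.0745) or PGPC replicate 3 (0.0634). The fifth gene, Lilrb4a, had 84.6, 47.5 and 113 CPM with PGPC, against 20.6, 35 and 42.5 CPM untreated (adjusted p = 0.183). Genes of this family have close copies, so reads may have been split between them and the value of each single member is uncertain. Without untreated replicate 3 the log2 fold change was 3.75 for Lilra6 and 2.38 for Pirb.

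The stretches upstream of 4 of the higher receptor genes are shown because Pira2 and Lilra6 moved together and because the bases show how alike these 2 stretches are. Each is the 250 bases before the gene start in RefSeq (GRCm38.p6), written along the gene. Capitals mark GAGGAA or its reverse complement TTCCTC, the core that ETS factors such as PU.1, the master factor of myeloid cells, can bind. The positions are chr7:3915502-3915751 (minus strand) for Lilra6, chr7:3845052-3845301 (minus strand) for Pira2, chr6:129349994-129350243 (plus strand) for Clec12a and chr6:40585806-40586055 (minus strand) for Clec5a.
Lilra6: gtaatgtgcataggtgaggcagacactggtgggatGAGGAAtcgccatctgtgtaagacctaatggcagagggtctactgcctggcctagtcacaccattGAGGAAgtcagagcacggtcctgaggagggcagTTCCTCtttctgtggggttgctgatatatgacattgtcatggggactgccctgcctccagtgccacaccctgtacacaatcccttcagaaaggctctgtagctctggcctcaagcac
Pira2: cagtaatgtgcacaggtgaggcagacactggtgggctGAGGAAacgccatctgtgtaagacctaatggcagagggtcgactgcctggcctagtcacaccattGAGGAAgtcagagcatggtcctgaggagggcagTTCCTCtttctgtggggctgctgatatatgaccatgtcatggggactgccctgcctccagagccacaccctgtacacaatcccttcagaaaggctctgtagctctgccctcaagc
Clec12a: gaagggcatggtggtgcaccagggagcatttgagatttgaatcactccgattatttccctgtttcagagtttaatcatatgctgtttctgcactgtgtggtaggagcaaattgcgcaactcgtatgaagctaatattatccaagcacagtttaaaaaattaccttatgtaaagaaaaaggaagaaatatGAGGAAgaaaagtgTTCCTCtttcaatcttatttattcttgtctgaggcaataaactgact
Clec5a: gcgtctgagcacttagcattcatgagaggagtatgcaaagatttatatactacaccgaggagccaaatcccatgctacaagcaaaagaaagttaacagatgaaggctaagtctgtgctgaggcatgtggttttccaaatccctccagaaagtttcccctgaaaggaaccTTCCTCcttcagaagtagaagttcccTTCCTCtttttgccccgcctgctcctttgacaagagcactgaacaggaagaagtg
Shifted by 2 bases, the Lilra6 and Pira2 stretches were identical at 238 of 248 bases (96.0%), with the 3 marked cores in the same places. The longer form GAGGAAGT, which contains the core, was in both of them. On either strand, GAGGAA was in 22 of the 55 called higher genes with a RefSeq promoter (40.0%), in 42 of 140 called lower genes (30.0%), in 2490 of 9428 tested genes (26.4%) and in 23.3% of all 32851 promoters of this length. GAGGAAGT was in 9 of the 55 higher genes (16.4%), 7 of the 140 lower genes (5.0%), 314 of 9428 tested genes (3.33%) and 2.44% of all promoters. Another motif scanned, of the NF-kB type, was in 8 of the 55 higher genes (14.5%) and 9 of the 140 lower genes (6.43%). It was in 605 of 9428 tested genes (6.42%) and 4.65% of all promoters. Lilra6 and Pira2 had 1 match each, and Clec12a and Clec5a had 0. For each motif the share was larger in the higher genes than in all tested genes, and no test was run on these shares. A gene with several promoters counts once if any of them holds the motif, whereas the share of all promoters counts each promoter. A match describes letters only, and Lilra6 and Pira2, whose stretches are near-identical, each count.

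Of 18 tested C-type lectin genes named Clec, 3 were called higher and none lower, beside 0.578% higher among all tested genes. Clec12a, an inhibitory receptor for uric acid crystals and dead cells, had 109, 90.7 and 135 CPM with PGPC, against 11.2, 24.1 and 28.9 CPM untreated, and rose by 2.35 ± 0.46 on the log2 scale (adjusted p = 0.0068). It was called whichever library was left out. Clec5a, an activating receptor that signals through DAP12, was nearly the same in the 3 PGPC libraries, at 13.3, 13 and 12.7 CPM, against 1.72, 1.77 and 1.06 CPM untreated (log2 fold change 3.11 ± 0.69, adjusted p = 0.0168). Its call was lost without untreated replicate 3 (adjusted p = 0.0599). Clec7a, the fungal glucan receptor dectin-1, had 49.2, 121 and 71.1 CPM with PGPC, against 14.6, 30.0 and 31.7 CPM untreated (log2 fold change 1.63 ± 0.39, adjusted p = 0.0257), a call lost without untreated replicate 1 (0.133) or PGPC replicate 2 (0.113).

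Of 9 tested genes of the SLAM family, receptors by which leukocytes contact each other, 3 were called higher and 7 lay wholly above the untreated libraries. The shares among all tested genes were 0.578% and 8.44%. Cd48 had 174, 163 and 152 CPM with PGPC, against 15.4, 27.5 and 68.4 CPM untreated (log2 fold change 2.11 ± 0.50, adjusted p = 0.0257). Cd244a, the receptor for CD48, rose by 2.05 ± 0.48 on the log2 scale (adjusted p = 0.0253) and Slamf9 by 2.98 ± 0.72 (adjusted p = 0.0289). None of these 3 calls held whichever library was left out. Without untreated replicate 1, the adjusted p was 0.13 for Cd48, 0.124 for Cd244a and 0.0775 for Slamf9, and without untreated replicate 2 it was 0.0855, 0.0838 and 0.131. Leaving out PGPC replicate 3 also ended the calls of Cd244a (0.117) and Slamf9 (0.106). The log2 fold change of Slamf9 ranged over 2.28 without PGPC replicate 3, 2.36 without untreated replicate 2 and 4.09 without untreated replicate 3, and that of Cd48 was 2.89 without untreated replicate 3. Of the 10 CD300 genes, whose products bind phospholipids, none was called and 4 lay wholly above, beside 8.44% of all tested genes. Of 5 TREM genes Trem1 alone was called, from 198 counts in the PGPC libraries and 0 in the untreated libraries, at least 2.78-fold higher (adjusted p = 0.0128, and 0.0533 without untreated replicate 2). Without PGPC replicate 1 the level of Trem1 was under the floor, and without untreated replicate 1 the bound was 7.58-fold. A fold given as at least some value is set against a floor of 3 counts in each library of the group without counts.

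Of 21 tested genes under LXR and PPAR control, Lpl was the only one called, with a list median of 0.30. Lpl encodes lipoprotein lipase, which frees fatty acids from circulating triglycerides (chromosome 8, 68880491 to 68907448, plus strand). It had 693, 409 and 879 CPM with PGPC, against 53.2, 188 and 125 CPM untreated. The groups did not overlap, and the gene rose by 2.43 ± 0.42 on the log2 scale (adjusted p = 0.00292), whichever library was left out. Pparg, the nuclear receptor that drives Lpl and Cd36, had 4.97, 12.4 and 15.7 CPM with PGPC, against 2.57, 0 and 2.87 CPM untreated (log2 fold change 2.74 ± 0.81, adjusted p = 0.0713). Fasn, which builds fatty acids, went the other way: it had 46.5, 55.9 and 46.2 CPM with PGPC, against 469, 206 and 262 CPM untreated, and fell by 2.65 on the log2 scale (SE 0.42, adjusted p = 0.00177), whichever library was left out and also with the 6 libraries alone. Of 24 tested cholesterol synthesis genes none was called (median 0.27, lowest adjusted p = 0.102), and of 18 eicosanoid and phospholipid enzymes none was called either (median 0.73). Hpgds, which makes prostaglandin D, was nearest, at 41.5, 29.3 and 69.5 CPM with PGPC and 5.15, 9.72 and 16.3 CPM untreated (adjusted p = 0.0677).

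**Figure D2:**
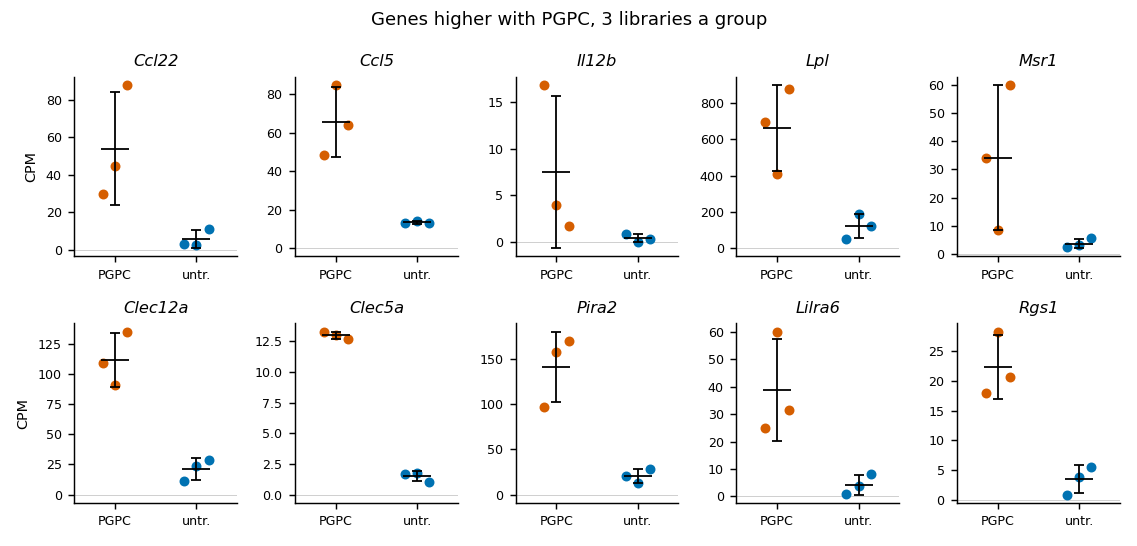
CPM of 10 called genes that were higher with PGPC, 1 panel a gene, with PGPC at the left and untreated at the right. Points are the 3 libraries of a group in the order of their replicate numbers, the long bar is their mean and the whiskers are 1 SD. In each panel the 3 PGPC points lie above the 3 untreated points; for Il12b the lowest PGPC point, 1.65 CPM, is close to the highest untreated point, 0.858 CPM.

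Cytokine genes moved in both directions. Of 24 tested cytokines and chemokines, 4 were called higher (Ccl22, Ccl5, Il12b and Il1b) and 1 lower (Osm), with a list median of 0.06. Among all tested genes, 0.578% were called higher and 1.5% lower. Ccl22, which draws regulatory and helper T cells, had 29.6, 44.5 and 87.6 CPM with PGPC, against 3.43, 2.52 and 11.3 CPM untreated. It rose by 3.15 ± 0.52 on the log2 scale (adjusted p = 0.00206). Ccl5, which draws T cells and monocytes, had 48.3, 84.5 and 64.0 CPM with PGPC, against 12.9, 14.4 and 13 CPM untreated (log2 fold change 2.28 ± 0.43, adjusted p = 0.00504). Both were called whichever library was left out, and in both the groups lay apart. The log2 fold change of Ccl22 was 4.26 without untreated replicate 3.

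Il12b and Il1b were higher at low levels. Il12b, the shared subunit of interleukin-12 and interleukin-23, had 16.8, 3.90 and 1.65 CPM with PGPC, against 0.858, 0 and 0.302 CPM untreated, or 463 against 3 counts (ratio 54.9, counting interval 18.7 to 267; adjusted p = 0.00724). Replicate 1 carried most of it, and the call was lost without untreated replicate 2 (adjusted p = 0.0533). Il1b, the cytokine that the inflammasome matures, had 19.1, 0 and 4.90 CPM with PGPC, against 0.858, 0.126 and 0.604 CPM untreated, so the groups overlapped. Its log2 fold change was 4.33 ± 0.95 (adjusted p = 0.0171), and the call was lost without PGPC replicate 1 (0.0745, log2 fold change 2.79) or untreated replicate 2 (0.0915, log2 fold change 3.65), while without untreated replicate 3 the log2 fold change was 5.01. Osm, a cytokine of the interleukin-6 family, was at 0 in every PGPC library and at 5.15, 0.631 and 4.23 CPM untreated, at least 7.79-fold lower (adjusted p = 0.00349; 21.6-fold without PGPC replicate 2). Tnf had 8.05, 7.15 and 7.76 CPM with PGPC and 1.72, 1.39 and 4.08 CPM untreated, which missed the threshold (adjusted p = 0.112), and Il6 had no count in either group.

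Among 19 genes of the inflammasome and of pyroptosis, 2 were called higher, Il1b and Mefv, beside 0.578% of all tested genes. The list median was 0.48. Mefv encodes pyrin, an inflammasome sensor, and had 5.64, 1.30 and 4.45 CPM with PGPC, against 0, 0 and 0.604 CPM untreated (log2 fold change 3.85 ± 0.93, adjusted p = 0.0279). That call was lost without untreated replicate 1 (0.0779) or 2 (0.122, log2 fold change 3.03), and without untreated replicate 3 no untreated count was left. Casp1 had 9, 15 and 26.2 CPM with PGPC, against 1.72, 6.06 and 7.4 CPM untreated (adjusted p = 0.155). Nlrp3, the sensor through which hyperactive cells are thought to act, overlapped between groups at 6.38 ± 1.94 CPM with PGPC and 6.74 ± 1.63 CPM untreated (adjusted p = 0.983). The pore-forming Gsdmd was at 91.4 ± 39.9 CPM with PGPC and 78.7 ± 16.1 CPM untreated (adjusted p = 0.891).

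Of 20 NF-kB target and feedback genes, Traf1 and Tnip3 were called higher and Bcl3 lower, with a median of -0.11. Among all tested genes, 0.578% were called higher and 1.5% lower. Bcl3, a nuclear IkB protein that modulates NF-kB dimers, had 0.552, 5.53 and 0.255 CPM with PGPC, against 41.2, 20.8 and 19.9 CPM untreated, and fell by 4.17 on the log2 scale (SE 0.73, adjusted p = 0.00292), whichever library was left out. Its log2 fold change was -3.53, -5.99 and -3.44 without PGPC replicates 1, 2 and 3. Traf1, a signalling adaptor of TNF receptors, rose by 1.99 ± 0.53 on the log2 scale (adjusted p = 0.0479) and the NF-kB inhibitor Tnip3 by 2.25 ± 0.54 (adjusted p = 0.0257). Both calls were lost when untreated replicate 1 (0.198 for Traf1, 0.0698 for Tnip3), untreated replicate 2 (0.103 and 0.116), PGPC replicate 1 (0.103 and 0.0699) or PGPC replicate 3 (0.0966 and 0.0623) was left out, and that of Traf1 also without untreated replicate 3 (0.0709).

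Of 21 maturation and migration genes, Ccl22 and Cd200 were called higher and Socs1 lower, with a list median of 0.81. The shares called among all tested genes were 0.578% higher and 1.5% lower. Of the list, 9 lay wholly above the untreated libraries, beside 8.44% of all tested genes. Ccr7, the receptor that takes mature dendritic cells to lymph nodes, had 137, 175 and 169 CPM with PGPC, against 39.5, 40.9 and 82.2 CPM untreated, with a log2 fold change of 1.55 ± 0.54 that missed the threshold (adjusted p = 0.132). The costimulators Cd40 (log2 fold change 1.56 ± 0.55, adjusted p = 0.141) and Cd86 (1.27 ± 0.48, adjusted p = 0.173) likewise lay wholly above without passing. Cd200, a ligand that restrains myeloid cells, rose on the log2 scale by 2.40 ± 0.53 (adjusted p = 0.0167), a call lost without untreated replicate 1 (0.0526) or 2 (0.0785); without untreated replicate 3 the log2 fold change was 3.23. Socs1, a brake on cytokine signalling, fell by 2.32 on the log2 scale (SE 0.61, adjusted p = 0.0427), with an adjusted p of 0.371 and a log2 fold change of -1.16 without untreated replicate 1, 0.0728 without PGPC replicate 2 and 0.0828 without PGPC replicate 3. Of 36 interferon-stimulated genes, Mx2 alone was called (log2 fold change 2.79 ± 0.74, adjusted p = 0.0447; 0.0684 to 0.157 without any of untreated replicates 1 to 3 or PGPC replicates 1 and 3), and the median was 0.04. The MHC class I (16 genes) and class II (12 genes) lists had no call, with medians of 0.15 and 0.54.

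Other called higher genes fell outside these lists. Ankrd49 had 26.1, 15.3 and 28.1 CPM with PGPC, against 1.72, 0.379 and 1.96 CPM untreated (log2 fold change 4.18 ± 0.88, adjusted p = 0.0115; 4.94 without untreated replicate 3). Dnah2, a dynein heavy chain of cilia, had 6.35, 13.7 and 11.8 CPM with PGPC, against 0, 0.631 and 0.755 CPM untreated (4.05 ± 0.77, adjusted p = 0.00509). Rgs1, which damps chemokine receptor signals, had 18.0, 28.3 and 20.7 CPM with PGPC, against 0.858, 3.91 and 5.59 CPM untreated (2.49 ± 0.45, adjusted p = 0.00343). Each of the 3, and the splicing kinase gene Clk1 (98.8 ± 21.5 CPM with PGPC and 28.9 ± 7.89 CPM untreated, adjusted p = 0.00658), was called whichever library was left out. Tsc22d3, which encodes the glucocorticoid-induced protein GILZ, was at 188, 174 and 179 CPM with PGPC, against 48.9, 70.4 and 62.5 CPM untreated (log2 fold change 1.57 ± 0.36, adjusted p = 0.0223), a call lost without untreated replicate 1 (0.0978) or 3 (0.0508).

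Ccny had the lowest adjusted p of all tested genes, and the genes here are regulators called whichever library was left out. Ccny, an atypical membrane-bound cyclin, had 13.1, 5.53 and 4.96 CPM with PGPC, against 319, 135 and 107 CPM untreated. The lowest untreated library was far above the highest PGPC library, and the gene fell by 4.53 on the log2 scale (SE 0.55, adjusted p = 0.000162). Klhl21, a substrate adaptor of cullin-3 ubiquitin ligase, had 43.2, 8.78 and 17.5 CPM with PGPC, against 1060, 163 and 213 CPM untreated (log2 fold change -4.34 ± 0.61, adjusted p = 0.000822). Zfp36l2, which binds AU-rich elements and speeds the decay of messenger RNA, had 36.3, 54.3 and 39.9 CPM with PGPC, against 1700, 380 and 541 CPM untreated (-4.33 ± 0.76, adjusted p = 0.00307). Ralgds, an exchange factor for Ral GTPases, had 12.8, 10.1 and 7.19 CPM with PGPC, against 78.9, 62.9 and 70.2 CPM untreated (-2.81 ± 0.44, adjusted p = 0.00177), with little spread within either group. Dusp5, a phosphatase that inactivates ERK, had 5.41, 2.93 and 4.84 CPM with PGPC, against 18.0, 26.9 and 35.8 CPM untreated (-2.59 ± 0.43, adjusted p = 0.00206). Untreated replicate 1 was the highest library for Ccny, Klhl21, Zfp36l2 and Ralgds and the lowest untreated one for Dusp5. Without it the log2 fold change was -3.90 for Ccny, -3.00 for Klhl21 and -3.41 for Zfp36l2, and without PGPC replicate 1 it was -5.16 for Ccny and -5.17 for Klhl21.

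**Figure D3:**
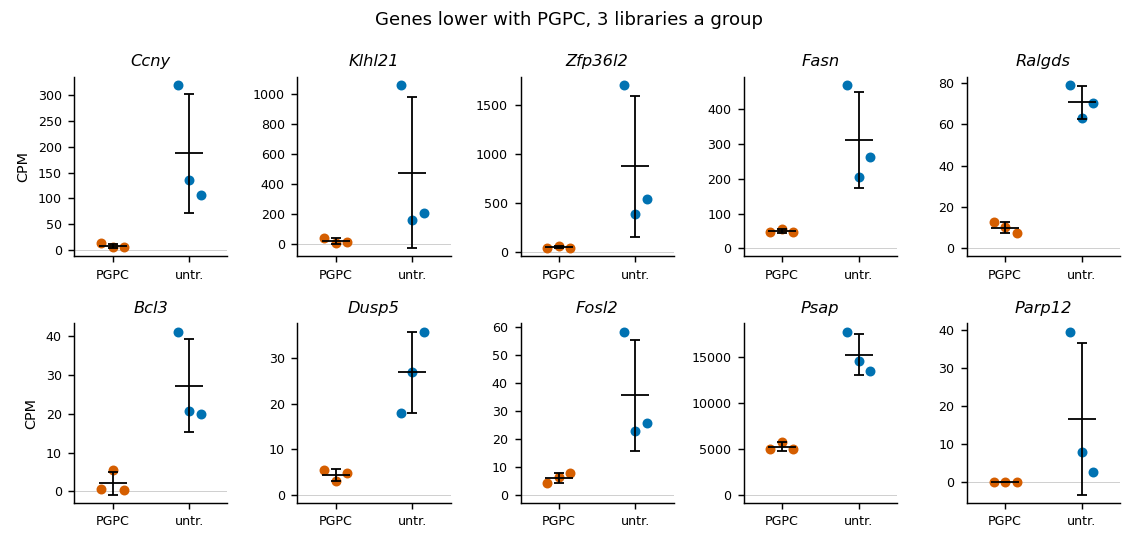
CPM of 10 called genes that were lower with PGPC, 1 panel a gene, with PGPC at the left and untreated at the right. Points are the 3 libraries of a group in the order of their replicate numbers, the long bar is their mean and the whiskers are 1 SD. The 3 PGPC points lie below the 3 untreated points in each panel, and untreated replicate 1, the left blue point, is the highest in 9 of the panels, all but Dusp5.

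Several lower genes had no count in any PGPC library. This was so for 64 of the 187, and for 369 of all 12463 tested genes. Parp12, an interferon-inducible ADP-ribosyltransferase, was at 0 in all 3 PGPC libraries, against 39.5, 7.83 and 2.57 CPM untreated, at least 38.8-fold lower (adjusted p = 0.000822). The heparan sulfate sulfotransferase gene Hs3st3b1 was at least 31.9-fold lower (0 against 160 counts, adjusted p = 0.00307), the tetraspanin gene Tspan9 at least 21-fold (0 against 153 counts, adjusted p = 0.00206) and Flt4, which encodes the VEGF receptor of lymphatic vessels, at least 18.2-fold (0 against 140 counts, adjusted p = 0.00186). These 4 were called whichever library was left out. Without untreated replicate 1 the bounds were 12.1-fold for Parp12 and 20.8-fold for Hs3st3b1, and without untreated replicate 3 that of Tspan9 was 13.2-fold. Without PGPC replicate 2, the shallowest PGPC library, all 4 bounds were higher, at 107-fold for Parp12, 88.3-fold for Hs3st3b1, 58.2-fold for Tspan9 and 50.4-fold for Flt4. Itga11, an integrin of collagen, and Cpeb3, which regulates translation, were also at 0 with PGPC but rested on 1 untreated library each. Itga11 had 2.57, 0.126 and 67.1 CPM untreated (adjusted p = 0.0144, and 0.141 without untreated replicate 3), and Cpeb3 had 24, 0.126 and 0.302 CPM untreated (adjusted p = 0.0166, and 0.245 without untreated replicate 1). Gbp4, an interferon-induced GTPase, had 2 counts with PGPC and 43 untreated (ratio 60.4, counting interval 15.7 to 515, lower with PGPC; adjusted p = 0.00177).

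In the other lists at most a few members were called lower, beside 1.5% of all tested genes. Fosl2, the AP-1 subunit Fra-2, was the only call among 23 immediate early and AP-1 genes (median -0.21), at 4.14, 6.18 and 7.83 CPM with PGPC, against 58.3, 22.7 and 25.5 CPM untreated (log2 fold change -2.52 ± 0.55, adjusted p = 0.0166; 0.0873 without untreated replicate 1 and 0.0501 without PGPC replicate 1). Of 22 NRF2 targets and regulators, Keap1 (-1.84 ± 0.39, adjusted p = 0.0116) and Gsr (-1.76 ± 0.42, adjusted p = 0.0257) were called lower and Hmox1 was not called (0.47 ± 0.41, adjusted p = 0.629). The adjusted p was 0.0651 for Keap1 and 0.0934 for Gsr without untreated replicate 1, and that of Gsr was also 0.0563 without untreated replicate 2, 0.0564 without PGPC replicate 2 and 0.0771 without PGPC replicate 3. Psap, which encodes the precursor of the saposins that help digest lipids in lysosomes, was the 1 call among 26 lysosome genes (median -0.08). It had 4940, 5740 and 4960 CPM with PGPC, against 17700, 14500 and 13400 CPM untreated (-1.54 ± 0.35, adjusted p = 0.0226; 0.077 without untreated replicate 1, 0.0571 without PGPC replicate 1 and 0.066 without PGPC replicate 3).

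Replication-dependent histone genes leaned lower: 3 of 23 were called (H3c13, H3c15 and H1f4), 10 lay wholly below the untreated libraries, and the median was -1.47. Over all tested genes, 1.5% were called lower and 9.66% lay wholly below. H3c13 had 19.0, 24.1 and 41.2 CPM with PGPC, against 1100, 245 and 352 CPM untreated (-4.33 ± 0.90, adjusted p = 0.0109). Without untreated replicate 1 the log2 fold change of H3c13 was -3.41, and the adjusted p was 0.0542 for H3c13, 0.0786 for H3c15 and 0.15 for H1f4. H3c15 also missed the threshold without PGPC replicate 1 (0.0513), and H1f4 without untreated replicate 2 (0.0566), PGPC replicate 1 (0.0982) or PGPC replicate 3 (0.0664). Histone copies share sequence, so single values are uncertain, and the 26 proliferation genes had no call and a median of -0.02. The ribosomal RNA locus took 27.6% of counts with PGPC and 53.2% untreated, and 71.94% in untreated replicate 1, where H3c13 was highest. The part of this difference in the histone values was not tested. No gene was called among 22 of the integrated stress response and unfolded protein response (median 0.01), 14 of heat shock (-0.35), 19 of glycolysis and hypoxia (0.20), 20 of actin and membrane traffic (-0.08) and 24 ribosomal proteins of the small subunit (-0.32). Plk2 was the only call among 18 p53 targets, higher by 1.95 ± 0.46 on the log2 scale (adjusted p = 0.0257, and 0.127 without untreated replicate 1, 0.0982 without untreated replicate 2 and 0.0883 without PGPC replicate 1; 2.59 on the log2 scale without untreated replicate 3).

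Among the lower genes, the median GC content over annotated transcripts was 53.9%, against 48.3% in the called higher genes and 49.4% in all tested genes. The median transcript length of the lower genes was 4214 bases, against 2876 in the higher genes and 3345 in all tested genes. Untreated replicate 1 was the highest untreated library for 112 of the 187 lower genes, 13 of the 72 higher genes and 3910 of all 12463, a count from the same values that made the calls. Ribosomal RNA reads were also most abundant in that library. With the ribosomal RNA locus and mitochondrial genes left out of the totals, 244 genes were called, 239 of them among the 259. Leaving out that locus changes only the totals and the genes tested, so it cannot show the part of RNA quality in the calls. Gm26917, which overlaps that locus, was itself called lower, at 1940, 3610 and 3340 CPM with PGPC and 34900, 24300 and 24800 CPM untreated (adjusted p = 0.00504).

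Genes of basophils and mast cells were among the higher genes. Prss34, a serine protease of basophils (chromosome 17, 25298394 to 25300165, plus strand), had 36.1, 25.7 and 45.4 CPM with PGPC and no count in the 3 untreated libraries, at least 31.5-fold higher (adjusted p = 0.00145). It was called whichever library was left out and with the 6 libraries alone, and without untreated replicate 1, the shallowest of its group, the bound was 85.8-fold. Cpa3, the carboxypeptidase of mast cell and basophil granules, had 27.6, 10.7 and 7.25 CPM with PGPC, against 0, 0.252 and 0 CPM untreated (ratio of counts 151, counting interval 41.6 to 1250; adjusted p = 0.0226). Its call was lost without untreated replicate 1 (0.0723), untreated replicate 3 (0.0623) or PGPC replicate 1 (0.0547). Cd200r3, an activating receptor of the same cells, had 5.17, 2.28 and 17.6 CPM with PGPC and 0 untreated, at least 7.34-fold higher (adjusted p = 0.0375; 0.0867, 0.102 and 0.0868 without untreated replicates 1, 2 and 3). Its bound was 20-fold without untreated replicate 1 and 3.28-fold without PGPC replicate 3, and without PGPC replicate 1 or 3 it no longer passed the filter on low counts. Fcer1a, the IgE receptor chain, had 3.04, 3.25 and 6.81 CPM with PGPC and 0 untreated (adjusted p = 0.0976), and Mcpt8 had 0, 4.23 and 12.3 CPM with PGPC and 0 untreated (adjusted p = 0.18).

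Over the whole list of 21 mast cell and basophil markers, 13 were tested, 3 were called higher and none lower, beside 0.578% higher among all tested genes. Il13, Gata1, Tpsb2, Cma1 and Mcpt4, 5 in all, were at 0 in every PGPC library, and 12 were at 0 in every untreated library. Scaled totals were 25343799, 3076617 and 15713709 with PGPC and 1165528, 7921501 and 6619355 untreated, and the part of depth in these zeros was not tested. The summed level was 490, 672 and 534 CPM with PGPC and 765, 621 and 881 CPM untreated, since it is dominated by Il6ra, Kit, Csf1 and Ifitm1, which other cells also express. Il6ra differed by -1.39 ± 0.47 on the log2 scale (adjusted p = 0.118).

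The 20 neutrophil and granulocyte precursor markers summed to 730, 381 and 1560 CPM with PGPC and to 75.5, 271 and 121 CPM untreated, so the groups did not overlap. Of 12 tested, none was called, 6 lay wholly above (8.44% among all tested genes) and the median log2 fold change was 2.40. S100a9 had 197, 63.7 and 386 CPM with PGPC, against 5.15, 49.4 and 14.8 CPM untreated (log2 fold change 3.17 ± 1.01, adjusted p = 0.107), and Ltf had 76.7, 44.9 and 139 CPM with PGPC, against 7.72, 18.4 and 6.34 CPM untreated (2.97 ± 0.94, adjusted p = 0.121). Elane, a protease of early precursors, was at 0 in both groups, and Cebpe, Ly6g and Ms4a3 were at 0 untreated. The part of depth in these zeros was not tested either. Myeloid receptors such as Pira2, Clec5a, Clec12a and Trem1 are also expressed by granulocytes, and the part of such cells in the calls was not tested.

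The 16 monocyte and macrophage markers summed to 6880, 5440 and 7450 CPM with PGPC and to 2320, 6020 and 5590 CPM untreated. Fcgr1, the high-affinity IgG receptor, was the only one called, at 13, 3.90 and 9.48 CPM with PGPC, against 0, 1.39 and 1.96 CPM untreated (log2 fold change 2.65 ± 0.63, adjusted p = 0.0257; 0.0786 and 0.082 without untreated replicates 1 and 2, and 0.0623 without PGPC replicate 1). The cDC1 markers summed to 1460, 1540 and 1350 CPM with PGPC and to 2210, 1820 and 1520 CPM untreated. Tested markers of cDC2 (12), plasmacytoid dendritic cells (11), B cells (7), the T and NK lineages (3), red cells (3) and eosinophils (2) gave no call.

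**Figure D4:**
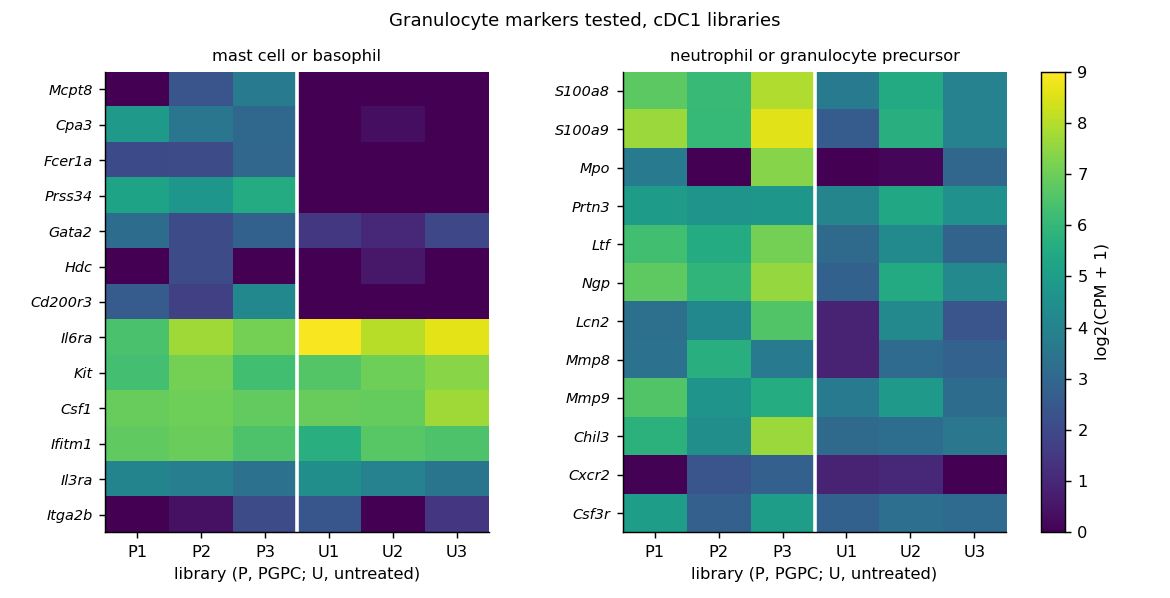
Levels of the tested mast cell or basophil markers (left) and neutrophil or granulocyte precursor markers (right) as log2(CPM + 1), 1 row a gene. Columns are the libraries, with PGPC replicates 1 to 3 left of the white line and untreated replicates 1 to 3 right of it. Prss34, Cd200r3 and Fcer1a have signal in the 3 PGPC columns and none in the untreated columns, while Il6ra, Kit and Csf1 are bright in both groups.

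Whether the same lipid did the same in the other kind of dendritic cell was tested as the difference between the effects in cDC1 and cDC2, with 2 PGPC and 3 untreated cDC2 libraries. The difference was called for 21 genes (0.168%), 1 higher (0.00802%) and 20 lower (0.16%) in cDC1. In cDC2 itself 2 genes were called (0.016%) between PGPC and untreated cells, Fam43a higher and Rab11b-ps2 lower (0.00802% each). The ribosomal RNA locus took 52.05 and 60.89% of counts in the cDC2 PGPC libraries, against 28.6, 31.51 and 37.34% in untreated cDC2. In cDC1 that share was lower with PGPC. Scaled totals were 1828720 and 581242 with PGPC in cDC2 and 3741766, 3879614 and 267943 untreated. The part of these shares and depths in the differences was not tested. Klhl21 had 877 and 1070 CPM with PGPC in cDC2, against 532, 469 and 444 CPM untreated in cDC2, so its fall in cDC1 differed from cDC2 by -5.35 on the log2 scale (adjusted p = 0.00277), whichever library was left out. Ccny had 191 and 44.7 CPM with PGPC in cDC2, against 158, 141 and 97.0 CPM untreated in cDC2 (difference -4.37, adjusted p = 0.00585, and 0.195 without cDC2 PGPC replicate 4). Arhgap28 was at 0 in the 3 PGPC libraries of cDC1 and at 19.1 and 8.60 CPM with PGPC in cDC2, against 3.47, 1.55 and 14.9 CPM untreated in cDC2 (adjusted p = 0.00257). The basophil genes Prss34, Cpa3, Cd200r3 and Fcer1a had no count in either cDC2 group, so their change could not be compared between the kinds.

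The effect of PGPC without LPS was then set against its effect on LPS-treated cDC1. The difference was called for 161 genes (1.29%), 47 higher (0.377%) and 114 lower (0.915%) without LPS. Between LPS with PGPC and LPS alone, 242 genes were called (1.94%), 174 higher (1.4%) and 68 lower (0.546%). Ccl22 rose with PGPC alone, but had 1010, 1660 and 1990 CPM with LPS and PGPC, against 2380, 1350 and 1340 CPM with LPS, and the difference between the effects was 3.27 ± 0.68 (adjusted p = 0.0175, and 0.0652 without LPS replicate 1). For Tnf the difference was 3.04 ± 0.70 (adjusted p = 0.0275) and for Cd40 3.34 ± 0.76 (adjusted p = 0.0246). Cd40 had 134, 163 and 110 CPM with LPS and PGPC, against 623, 410 and 368 CPM with LPS, and these 2 differences were lost in 5 of 12 fits that left out 1 library, with adjusted p up to 0.0998 for Tnf and 0.0857 for Cd40, both without LPS replicate 1. Neither gene was called with PGPC alone.

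For several of the lower genes the effect of PGPC differed when LPS was present. Ccny had 67.0, 109 and 125 CPM with LPS and PGPC, against 102, 82.1 and 125 CPM with LPS, and the effects differed by -4.48 ± 0.70 (adjusted p = 0.00377). Klhl21 was at 95.5 ± 13.9 CPM with LPS and PGPC and 106 ± 34.3 CPM with LPS (difference -4.19 ± 0.79, adjusted p = 0.0106). Dusp5 had 305, 423 and 652 CPM with LPS and PGPC, against 112, 62.6 and 191 CPM with LPS, so that it rose on LPS (adjusted p = 0.0119) and fell without it, a difference of -4.50 ± 0.59 (adjusted p = 0.000678). Fosl2 differed by -4.34 ± 0.78 (adjusted p = 0.00884), and Bcl3 by -4.17 ± 0.92 (adjusted p = 0.022, lost in 4 of 12 fits without 1 library, up to 0.0785 without LPS replicate 1). The differences of Ccny, Klhl21, Dusp5 and Fosl2 held whichever of the 12 libraries was left out. Prss34 was at 0, 0.113 and 0 CPM with LPS and PGPC, against 0.535, 1.18 and 0.294 CPM with LPS, and its difference was also called whichever library was left out (adjusted p = 0.00375).

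**Figure D5:**
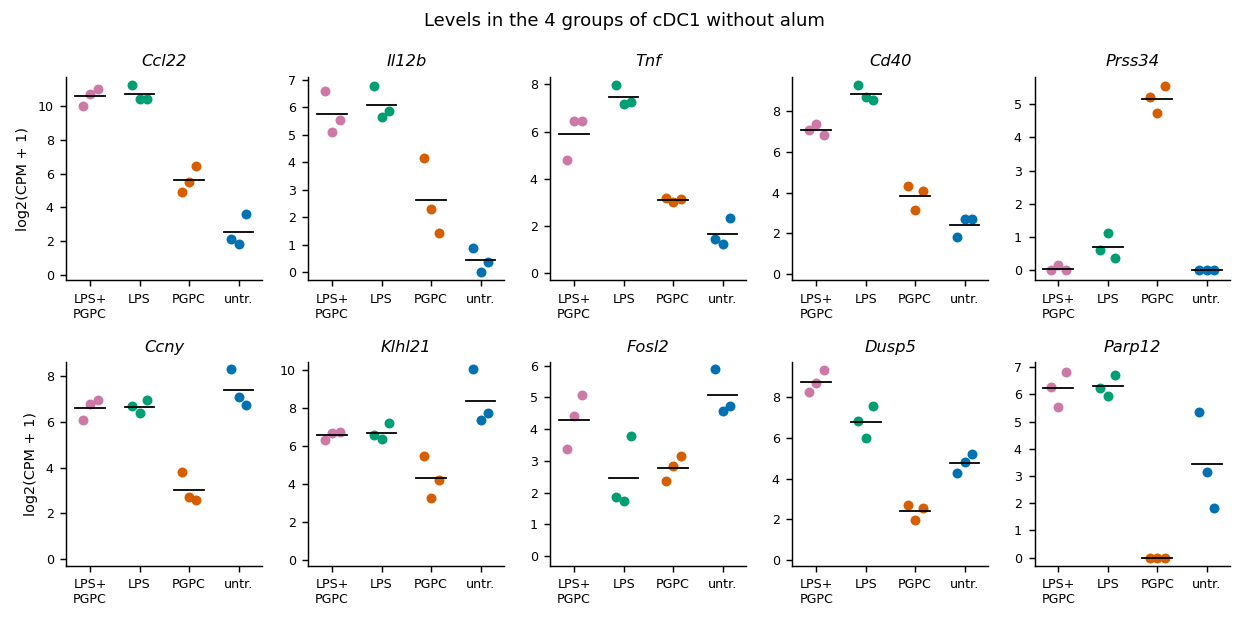
Levels of 10 genes in the 4 groups of cDC1 without alum, as log2(CPM + 1), 1 panel a gene. Points are the 3 libraries of a group in the order of their replicate numbers and bars are their mean. Ccl22 and Il12b are higher with PGPC than untreated and far higher in both LPS groups, Prss34 is near 0 in every group but PGPC, and Ccny and Klhl21 are lowest with PGPC.

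Set directly against LPS, which shares no control libraries with it, PGPC alone differed in 2925 genes (23.5%), 1412 higher with PGPC (11.3%) and 1513 lower (12.1%). Of 24 cytokine genes, 16 were lower with PGPC than with LPS and 1 was higher, of 20 NF-kB genes 19 were lower, of 36 interferon-stimulated genes 34 were lower and of 21 maturation genes 17 were lower. Cytokines that were higher with PGPC than untreated remained far below their LPS level. Ccl22 averaged 53.9 ± 30.2 CPM with PGPC and 1690 ± 597 CPM with LPS (log2 difference -4.97 ± 0.54, adjusted p = 8.9e-07), and Ccl5 65.6 ± 18.1 CPM with PGPC and 909 ± 147 CPM with LPS (-3.80 ± 0.45, adjusted p = 2.23e-06). Il1b averaged 7.99 ± 9.90 CPM with PGPC and 233 ± 42.1 CPM with LPS (-4.78 ± 0.75, adjusted p = 6.99e-05).

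Lpl, Clec12a and Msr1 were higher with PGPC than with LPS. Lpl averaged 660 ± 237 CPM with PGPC and 13.1 ± 5.31 CPM with LPS (log2 fold change 5.62 ± 0.49, adjusted p = 1.65e-07). Set beside each other over the shared untreated libraries, Lpl had a log2 fold change of 2.43 with PGPC and of -3.20 with LPS. Clec12a averaged 112 ± 22.5 CPM with PGPC and 6.59 ± 4.04 CPM with LPS (4.01 ± 0.50, adjusted p = 4.74e-06), and Msr1 34.1 ± 25.6 CPM with PGPC and 3.08 ± 2.27 CPM with LPS (3.31 ± 0.63, adjusted p = 0.000534). Among all tested genes, 11.3% were higher with PGPC than with LPS and 12.1% were lower, the shares to set beside each list count here. Of the 26 lysosome genes 10 were higher with PGPC than with LPS and none was lower, and of the 21 LXR and PPAR genes 10 were higher and 1 was lower. Pira2 (141 ± 39.0 CPM with PGPC and 136 ± 78.8 CPM with LPS, adjusted p = 0.963) and Pirb (adjusted p = 0.992) did not pass the test, with log2 differences of 0.04 ± 0.44 and 0.01 ± 0.39. None of the calls against LPS named here was lost when any 1 of the 6 libraries was left out. The oxidized lipid and LPS sensing list had 4 genes higher and 7 lower, and the Clec genes 5 higher and 4 lower. Of 12 neutrophil markers 10 were higher with PGPC than with LPS and none lower, and of 16 monocyte and macrophage markers 12 were higher and 2 lower (median log2 difference 3.48). The part of such cells in these differences was not tested.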

How the data were processed

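RNA worth a fixed number of cells went through Smart-Seq2 and Nextera XT and was sequenced as paired ends, per the labels' protocols. The authors deposited expected counts for each gene symbol, with RSEM, bcl2fastq 2.2 and GRCm38 named in the submitters' processing notes; for the RSEM version, the aligner and the annotation, the entry is not given in the sources used here. Of nonzero values 21% are not whole, so counts were rounded. The table holds 53299 genes.

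Groups came from the treatment labels. The 24 libraries without alum, less cDC2 PGPC replicate 6 (3805 counts), entered 1 edgeR quasi-likelihood fit of 23 libraries and 8 group means (edgeR 4.0.16, limma 3.58.1, R 4.3.3; TMM, robust, filterByExpr with a minimum count of 10 and total of 15). The code was also run on counts simulated from the model of the fit, which cannot show whether that model suits these data. Of the genes, 12463 passed the filter. Every adjusted p is from the edgeR quasi-likelihood test with Benjamini-Hochberg adjustment over all of them, threshold 0.05. Each standard error is the log2 fold change over the root of F. DESeq2 1.42.0 was an alternative. Counting intervals are exact conditional 95% intervals; intervals and floors cover counting error only, since reads carry no molecular identifiers. In CPM, 3 counts are 0.118 to 0.975 in the PGPC libraries and 0.379 to 2.57 in the untreated libraries.

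Members, lists, comparisons and alternatives were chosen with earlier results of these data known. The rule for named genes takes called genes with at least 5 CPM and no overlap, 12 each way by fold change; up to 4 members a list by adjusted p; a fixed panel; tested granulocyte markers; and 6 each way for the other tests, and the text names some of these. Positions are from GENCODE M21, where 12360 of the 12463 symbols were found. Counting by strand is not stated, so overlapping genes cannot be told apart. P-values measure the spread between these libraries.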

Additional observations from a re-analysis of the deposited data

Results flagged for a closer look

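The effect of PGPC in cDC1 differed from its effect in another setting, by the test of the difference itself, for the genes below. Values are log2 differences from edgeR, and where a group has no counts the fitted value depends on the prior count and is not a bound. Against cDC2, the difference was -9.56 for Arhgap28, -9.41 for Lgr6, -9.40 for Clstn1, -9.18 for Ret, -9.07 for Rab30, -8.65 for Flt4, -4.37 for Ccny and -5.35 for Klhl21. Those of Arhgap28 and Klhl21 held whichever library was left out. Those of Lgr6 and Ret were lost in 7 and 8 of 11 such fits, that of Flt4 in 5, Clstn1 in 4, Rab30 in 3 and Ccny in 1.

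Against LPS-treated cDC1, the difference was negative for Lgr6 (-13.48), Zfp532 (-12.65), Ephb4 (-12.10), Ptprg (-10.89), Bmp2 (-10.50), Pxdc1 (-10.16), Parp12 (-9.40), Osm (-7.65), Dusp5 (-4.50), Ccny (-4.48), Fosl2 (-4.34), Klhl21 (-4.19) and Bcl3 (-4.17). It was positive for Prss34 (14.08), Cd200r3 (13.45), Prickle1 (10.22), Cpa3 (9.98), Mgll (7.64), Trem1 (7.44), Mefv (5.45), Il12b (5.35), Cd40 (3.34), Ccl22 (3.27) and Tnf (3.04). Those of Prss34, Parp12, Osm, Dusp5, Ccny, Fosl2 and Klhl21 held in all 12 fits that left out 1 library. That of Trem1 was lost in 7 such fits, Ephb4 and Mgll in 6, and Bmp2, Cd40, Il12b, Prickle1 and Tnf in 5. Those of Bcl3, Ptprg and Pxdc1 were lost in 4, Mefv in 3, Cpa3 and Zfp532 in 2, and Ccl22 and Lgr6 in 1. That of Cd200r3 was lost in 2 of 10. Ephb4 and Lgr6 reached an adjusted p of 1.0 without 1 LPS and PGPC library, replicate 3 for Ephb4 and replicate 1 for Lgr6.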

How the results depend on the processing

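Against the 259 genes called between PGPC and untreated cDC1, 632 were called with no filter on low counts, 43 with all 36 libraries, 8 with the 6 libraries of these groups alone, 68 with the 12 cDC1 libraries alone and 637 with DESeq2. Median-ratio size factors gave 252, and leaving out 1 library gave 119 to 317, the lowest without untreated replicate 1. Against 21 for the difference from cDC2, there were 194 with no filter, 1 with all 36 libraries, 124 with DESeq2 and 6 to 78 with 1 library left out. Against 161 for the difference from LPS-treated cells, there were 592, 18 and 506 in the same order, and 33 to 351 with 1 library left out, the lowest without LPS replicate 1. Against 2925 for PGPC against LPS, all 36 libraries gave 888 and leaving out 1 library gave 1986 to 2718. Of the 259 calls, 257 were also called by DESeq2, 240 with median-ratio size factors and 43 with all 36 libraries, and none changed direction.

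With 3 libraries a group, the values cannot settle whether equal replicate numbers pair the samples. Same-numbered PGPC and untreated libraries had correlations of -0.037, 0.001 and 0.128 of their deviations from group means. Those with unlike numbers had -0.109 to 0.09. With the replicate number as a block, 217 genes were called, 181 of them among the 259, and 19, 150 and 2877 in the other 3 tests. Depth limits low genes most in untreated replicate 1, where 3 counts are 2.57 CPM.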
